A study of Mus musculus domesticus with 12 samples.

Results

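The transcriptome described here is that of control erythroid precursors, and the samples are the 4 shLuc libraries among the 12 libraries of the series. All 55385 genes of the deposited tables were read in each of the 4. The libraries were chosen by their label alone: their retrovirus carried a short hairpin RNA (shRNA) against Luc, luciferase, which mouse cells do not have. Liver cells of C57BL/6J embryos at E14.5 were depleted of lineage-positive cells, infected with that virus and cultured for 2 days in erythroid expansion medium. The sort then kept GFP+ cells of 2 gates in 1 sample, erythroid progenitors (CD71int, Ter119-) and proerythroblasts (CD71int/+, Ter119-). Infection, culture and the sort are shared by all 4 libraries, so none of them is untouched fetal liver. The labels do not say whether the 4 libraries came from separate embryos or cultures. How much of the spread between them is technical was not tested, and the libraries differed in RNA of sex-linked genes, as given below. In bulk RNA, fewer cells of a type and less RNA per cell cannot be told apart.

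Erythroid precursors of the fetal liver divide rapidly under stem cell factor and erythropoietin and then mature into red cells. The transferrin receptor (CD71, gene Tfrc) brings in iron and appears early, while the Ter119 antigen appears later. Proerythroblasts already carry the transcription factors GATA1 and KLF1, which drive the genes for globins, heme synthesis and the red cell membrane. Those target genes reach their highest levels in the later, Ter119+ erythroblasts, which the sort left out.

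Levels of different genes are compared below in TPM (transcripts per 1000000), which is corrected for transcript length. One gene or gene list is followed across libraries in CPM (counts per 1000000 of the rounded expected counts, scaled by the TMM method), because TPM also moves with the amount of short structured RNA in a library. A gene is called on where it had at least 1 TPM in all 4 libraries, off where it was under 1 TPM in all 4, and mixed otherwise. A gene is called variable where its highest and lowest library differed at least 4-fold in CPM, a range of 2 on the log2 scale. This was measured in genes that averaged 5 CPM or more over the 4 libraries. A gene can reach that mean through 1 high library alone. Counts of variable genes, and of genes highest in a given library, are therefore partly set by this filter. There is 1 group and no test between groups, so lists are described by counts beside the same counts over all genes.

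Replicate 4 stood apart from the other 3 libraries. Over 9045 measured protein-coding genes, log2 CPM correlated between replicates 1, 2 and 3 at r = 0.974 to 0.983, and between replicate 4 and any of them at 0.899 to 0.905 (across genes, which are not independent replicates). Between 205 and 262 coding genes lay at least 4-fold apart in a pair with replicate 4, against 1 to 9 in the other pairs. The common biological coefficient of variation was 29.5% with all 4 libraries and 18.4% without replicate 4. Library totals were 22149757, 27910385, 22168427 and 28177500 counts in replicates 1 to 4, so 5 CPM stood for 93.6 to 153 counts, with a counting error of 8.09% to 10.3% (coefficient of variation). The upper limit that a count of 0 allows, 3 counts, stood for 0.0982 to 0.160 CPM, and both values cover counting error only. Genes of olfactory receptors, proteins of sensory neurons, summed to 46.0, 329, 160 and 8.20 CPM. Values without replicate 4 are given beside several of the gene groups. The scaling also matters: against TMM, TPM rescaled to the coding genes moved the median gene of the libraries by up to 0.42 (log2) relative to one another, DESeq2's size factors by 0.10 and deposited TPM by 1.27.

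The 4 markers of erythroid precursors and proerythroblasts were on in every library. Tfrc (ENSMUSG00000022797.16, chromosome 16, 32608920 to 32632794, plus strand, GRCm38) had 168 ± 59.3 TPM (SD, n = 4) and took place 398 among the nuclear protein-coding genes. Klf1 (ENSMUSG00000054191.8, chromosome 8, 84901928 to 84905291, plus strand) had 93.1 ± 28.4 TPM. Kit, the receptor for stem cell factor (ENSMUSG00000005672.12, chromosome 5, 75574916 to 75656722, plus strand), had 86.6 ± 9.50 TPM. Gata1 (ENSMUSG00000031162.14, chromosome X, 7959260 to 7978071, minus strand) had 53.8 ± 17.3 TPM. All 4 lay well above 1 TPM in each library, as the label of the cells requires.

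Across libraries these markers moved differently. Tfrc measured 1430, 1052, 889 and 347 CPM in replicates 1 to 4, and replicate 4 was the lowest. Its range was 2.04 on the log2 scale with all libraries and 0.69 without replicate 4. Kit measured 584, 441, 546 and 373 CPM, again with replicate 4 lowest, over a range of 0.65. Klf1 measured 138, 154, 194 and 125 CPM and Gata1 97.6, 104, 131 and 97.8 CPM, with replicate 3 highest for both and ranges of 0.63 and 0.42. The TPM ratio of Kit to Tfrc was 0.391, 0.395, 0.589 and 0.926 in replicates 1 to 4.

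Nuclear protein-coding genes took 51.2% ± 12.6 of TPM, and most of the rest went to mitochondrial and structured RNA. Nuclear protein-coding genes took 36.1%, 56.7%, 46.6% and 65.2% of TPM in replicates 1 to 4 and 67.2% to 81.7% of counts. Transcripts of the mitochondrial genome took 7.74% to 15.9% of TPM. The annotated class misc_RNA, which holds the 7SK and 7SL RNAs, took 26.6%, 12.5%, 20% and 11.2%. Small nuclear RNAs (5.77%, 2.41%, 7.16% and 0.739%) and the nucleolar and Cajal body RNAs (4.25%, 1.47%, 3.29% and 0.858%) were likewise higher in replicates 1 and 3 than in 2 and 4.

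**Figure D1:**
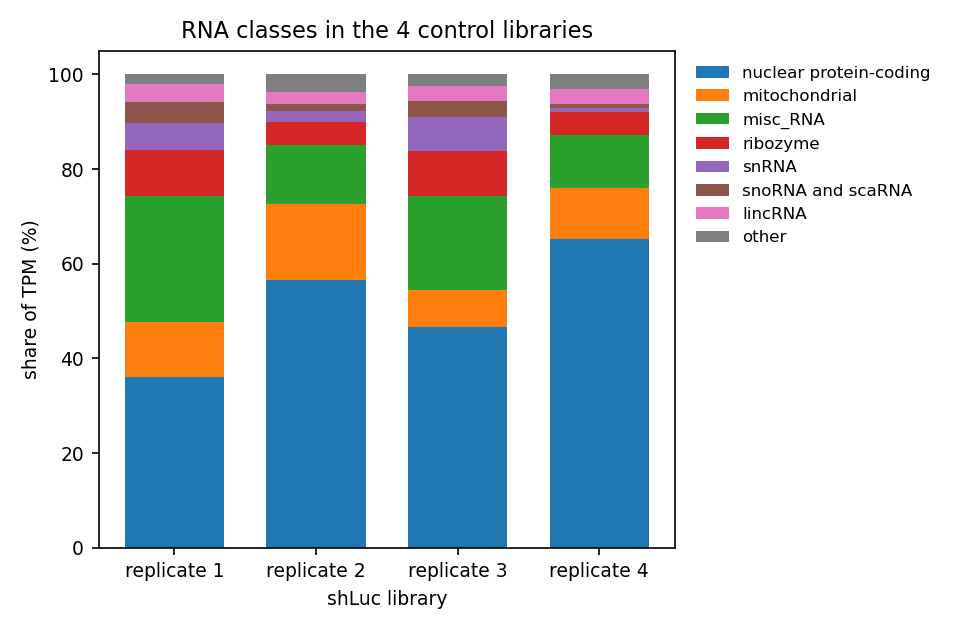
Share of TPM (%) taken by each annotated RNA class in the 4 shLuc libraries, stacked to the whole library. Replicates 1 and 3 carry larger misc_RNA, snRNA and snoRNA shares, and nuclear protein-coding genes range from 36.1% in replicate 1 to 65.2% in replicate 4.

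The 10 genes of highest mean TPM were all non-coding. They were Rn7s2 (90921 ± 29408 TPM) and Rn7s1 (32677 ± 15041), which are 7SL RNAs of the signal recognition particle, Rpph1 (72432 ± 27803), the RNA of ribonuclease P, and Rn7sk (51919 ± 28360), which restrains transcription elongation. The mitochondrial ribosomal RNAs mt-Rnr2 (50576 ± 12863 TPM) and mt-Rnr1 (43134 ± 14743) were among them. Rmrp, the RNA of the mitochondrial RNA processing ribonuclease, had 18044 ± 9474 TPM, and the lincRNA gene Gm26917 had 9230 ± 5273. Short effective lengths lift such values. The small nuclear RNA gene Gm23971 reached 18759 ± 15842 TPM from 0.0226% ± 0.0215 of counts with an effective length of 7 to 8 bases, and Gm26448, a snoRNA gene, 7685 ± 5132 TPM from 0.0146% ± 0.0127 of counts with 11 to 13 bases. Rn7sk itself had an effective length of 99 to 107 bases and measured 19736, 3206, 9284 and 2776 CPM in replicates 1 to 4, and Rmrp 3886, 738, 2153 and 478 CPM. Both were highest in replicate 1, next in replicate 3 and lowest in replicate 4.

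The protein-coding RNA was led by the translation machinery and by histones. Of the 20 coding genes of highest mean TPM, 14 belong to the ribosomal protein genes, 5 are clustered histone genes and 1 is Eef1a1, the translation elongation factor. Rpl26 was highest with 5614 ± 742 TPM, followed by the histone gene Hist1h2ai with 4269 ± 713, Rpl13a with 4132 ± 688 and Rplp1 with 4084 ± 257. Eef1a1 had 3533 ± 1256 TPM and measured 5384, 5161, 5665 and 4849 CPM, a range of 0.22 on the log2 scale. Ribosomal protein genes together took 25.4% ± 3.73 of the coding TPM and 80 of 83 were on. Clustered histone genes, which are transcribed during DNA replication and whose messages lack a poly(A) tail, took 11.6% ± 3.42, and 62 of 67 were on. The 20 leading genes held 13.7% ± 2.42 of the coding TPM, the leading 100 held 37.7% ± 5.39 and the leading 1000 held 71.9% ± 4.28. Near-identical histone copies share reads, so the order among them is uncertain.

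Of 55385 genes, 9615 were on in all (17.4%), 3788 were mixed and 41982 were off, of which 19195 were listed at 0 in all 4 libraries. Among 21884 nuclear protein-coding genes 9010 were on (41.2%), 1938 were mixed and 10936 were off (49.97%). Of the globin genes 4 of 11 were on, near the coding share of 41.2%, and the other erythroid lists lay far above it. All 21 genes of heme synthesis and handling were on, as were 23 of 24 red cell membrane and skeleton genes, 30 of 34 transcription factors and 11 of 13 surface receptors. The lists of lineages outside the blood lay far below it, with 1 of 22 hepatocyte genes and 2 of 22 endothelial and stromal genes on. Lymphoid genes were also low, with 1 of 23 on. Megakaryocyte (12 of 25), granulocyte (17 of 23), stem and early progenitor (9 of 26) and mast cell, basophil and eosinophil genes (7 of 19) were nearer to the coding share or above it. In the same order, 12, 3, 14 and 8 of their members were mixed, against 8.86% of nuclear protein-coding genes.

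**Figure D2:**
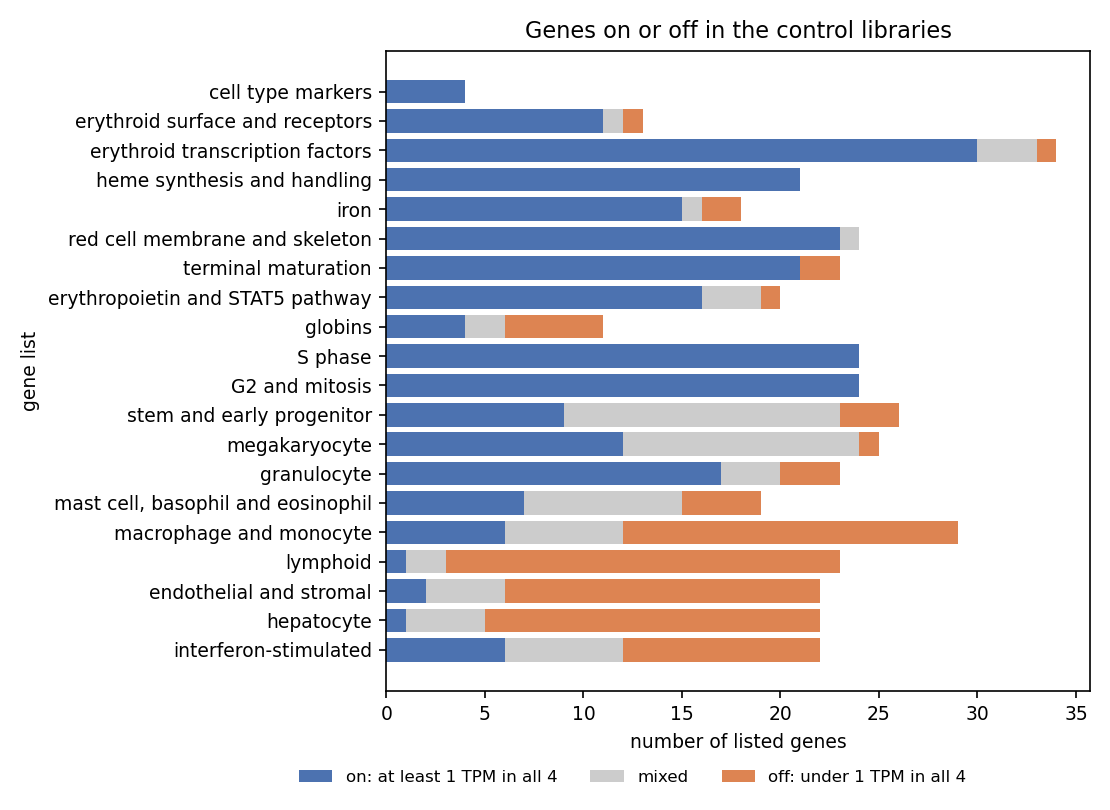
Number of listed genes on (at least 1 TPM in all 4 libraries), mixed or off (under 1 TPM in all 4) in 20 gene lists. Heme, membrane and cell cycle lists are almost wholly on, and lymphoid, hepatocyte, endothelial and most macrophage genes are off.

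Of the 13 surface and receptor genes 11 were on. Cd24a, a membrane glycoprotein of early erythroid cells, was the highest of them with 485 ± 169 TPM. Cd47, which restrains phagocytosis, had 98.7 ± 29.7 TPM, and the integrin genes Itga4 and Itgb1, through which precursors hold to macrophages, had 85.9 ± 30.7 and 60.6 ± 18.8. Cd44, which falls as erythroblasts mature, had 42.5 ± 21.6 TPM, and measured 151, 138, 142 and 178 CPM in the 4 libraries. Ptprc, the leukocyte antigen CD45, measured 21.2, 11.9, 14.6 and 56.7 CPM and was highest in replicate 4. Cd36, a fatty acid receptor, was off with 0.155 ± 0.163 TPM.

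Among the transcription factors, progenitor and erythroid genes stood side by side. Ikzf1 (Ikaros) was highest with 184 ± 89.5 TPM and lay above the next gene, E2f4, in all 4 libraries. E2f4, a cell cycle factor needed for red cell production, had 145 ± 66.1 TPM, and Myb, which keeps progenitors dividing, had 117 ± 104. Ldb1 (108 ± 44.6 TPM), Lmo2 (97.9 ± 72.7) and Tal1 (22.8 ± 13.0), which form a complex with GATA1, were on. So were Zfpm1 (FOG1, the cofactor of GATA1, 93.7 ± 64.9 TPM), Nfe2 (75.8 ± 38.2) and Gfi1b (51.2 ± 8.71), a repressor of erythroid and megakaryocyte cells. The order between Myb and Ldb1, between Zfpm1 and Klf1 and between Gata2 and Lyl1 did not hold in all libraries: the gene with the higher mean was above the next in 1, 1 and 2 of the 4. In the whole order of 34 factors, 6 genes lay above their next neighbour in all 4 libraries. Runx1t1 was the only one off, and Sox6, Erg and Gfi1 were mixed.

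**Figure D3:**
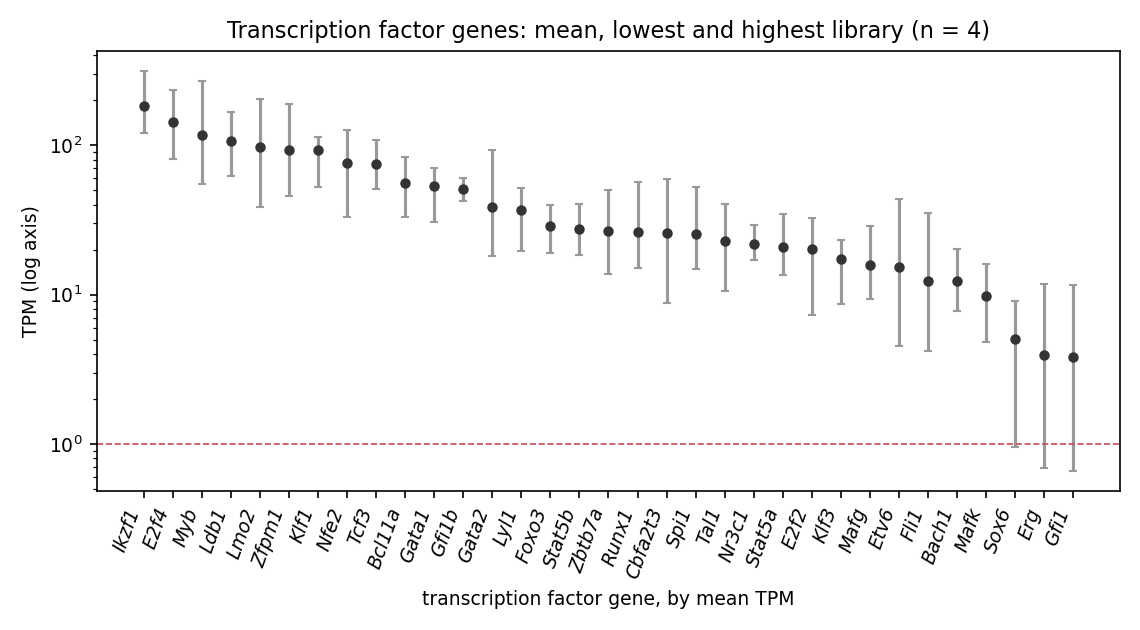
Mean TPM (points, log axis) of the 33 transcription factor genes with a mean of at least 1 TPM, with bars from the lowest to the highest of the 4 libraries and a dashed line at 1 TPM. The levels fall gradually from Ikzf1 to Gfi1, and the bars of neighbouring genes overlap.

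Gata1 and Gata2, the pair whose exchange accompanies the step from progenitor to erythroblast, differed in their spread. Gata2 measured 114, 58.4, 102 and 219 CPM, with replicate 2 lowest and replicate 4 highest, over a range of 1.91 on the log2 scale. The TPM ratio of Gata1 to Gata2 was 1.46, 3.48, 2.30 and 0.754, so Gata1 was the more abundant message in replicates 1 to 3 and Gata2 in replicate 4. Myb measured 323, 239, 251 and 606 CPM, again highest in replicate 4. Fli1 and Etv6, factors of megakaryocytes and stem cells, measured 17.0, 15.4, 15.3 and 62.6 CPM and 48.3, 36.6, 42.8 and 134 CPM. Spi1 (PU.1), the myeloid factor that opposes GATA1, was on with 25.4 ± 18.0 TPM and measured 47.9, 31.5, 44.4 and 69.6 CPM. Sox6, which acts late in red cell maturation, moved the other way with 8.92, 26.2, 24.5 and 3.71 CPM, high in replicates 2 and 3. Bcl11a, its partner in silencing embryonic globins, varied little (235, 200, 202 and 204 CPM). Of 33 measured factors 4 were variable, and the share over all measured genes was 4.46%. Of the 15 repressors and early or other lineage factors, 10 were highest in replicate 4, where 40.9% of all measured genes were highest. The whole list was highest in replicate 4 under all 3 scalings. Gata2, Etv6, Erg and Gfi1 also stand in the stem and early progenitor list, Gfi1 in the granulocyte list and Fli1 in the megakaryocyte list. The counts of those lists below are therefore not wholly separate observations.

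Only the adult-type globin genes were on. Hba-a1 (chromosome 11, 32283511 to 32284465, plus strand) had 539 ± 409 TPM, Hba-a2 (32296489 to 32297298) 447 ± 327, Hbb-bs (chromosome 7, 103826534 to 103828096, minus strand) 416 ± 362 and Hbb-bt (103812524 to 103813996) 150 ± 139. The embryonic genes Hba-x, Hbb-bh1, Hbb-bh2 and Hbb-bh0 were off, and so was Hbq1a, while Hbq1b was mixed. Hbb-y was mixed at 0.493 ± 0.669 TPM, and embryonic beta-like globins made up 0.154%, 0.0769%, 0.111% and 0.677% of beta-like TPM. Whether a read can tell these genes apart depends on their sequence. The last 90 coding bases of 5 of them are shown to let near-identical copies be told from distinct ones, 5′ to 3′ from the GENCODE M21 transcripts on GRCm38, with positions counted from 1 at the A of the start codon. Capitals mark bases that differ from Hbb-bs for the beta-like genes and from Hba-a1 for Hba-a2. The first 3 lines are coding bases 352 to 441 and the others are coding bases 337 to 426.
Hbb-bs: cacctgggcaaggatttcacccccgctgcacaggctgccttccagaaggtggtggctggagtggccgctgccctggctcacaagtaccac
Hbb-bt: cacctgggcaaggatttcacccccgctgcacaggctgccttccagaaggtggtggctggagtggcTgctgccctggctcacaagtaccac
Hbb-y: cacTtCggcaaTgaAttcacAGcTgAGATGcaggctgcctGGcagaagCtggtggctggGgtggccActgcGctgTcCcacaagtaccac
Hba-a1: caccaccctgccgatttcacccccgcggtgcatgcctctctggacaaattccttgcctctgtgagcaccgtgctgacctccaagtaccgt
Hba-a2: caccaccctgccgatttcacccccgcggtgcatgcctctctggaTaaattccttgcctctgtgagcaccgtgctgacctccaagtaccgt

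Hbb-bs and Hbb-bt differed at 1 of 441 coding bases (C417T, identity 99.8%), with an identical run of 416 bases. Hba-a1 and Hba-a2 differed at 1 of 426 (C381T). The split of counts within each pair therefore rests on reads over that base or outside the coding sequence and is uncertain. Hbb-y differed from Hbb-bs at 113 of 441 bases (identity 74.4%), so its low level does not share that uncertainty to the same degree. As deposited, the TPM ratio was 2.94 ± 0.282 for Hbb-bs to Hbb-bt and 1.19 ± 0.106 for Hba-a1 to Hba-a2.

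Globin levels split the libraries into high and low ones. Hba-a1 measured 113, 507, 454 and 125 CPM in replicates 1 to 4 and Hbb-bs 95.9, 362, 262 and 54.6 CPM. Replicates 2 and 3 were high and replicates 1 and 4 low for all 4 adult-type genes, which were all variable. Without replicate 4 their ranges were still 1.91 to 2.19 on the log2 scale. All globins together summed to 320, 1323, 1127 and 273 CPM, or 923 ± 531 without replicate 4 (n = 3). Replicate 4 was the lowest library by the list's median with TMM and DESeq2's factors, and replicate 1 with rescaled TPM. The olfactory receptor sum given above had the same order of libraries as the globin sum (replicates 2, 3, 1 and 4), and its part in these values was not tested. Gapdh, the glycolytic enzyme gene, had 2.28, 0.721, 0.904 and 2.32 times the TPM of all globins together.

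Heme synthesis was on from beginning to end. Cpox (161 ± 53.6 TPM), Fech (98.2 ± 31.7), Alad (75.3 ± 28.6) and Urod (66.9 ± 23.0), enzymes of the middle and last steps, were among the highest. The erythroid form of the entry enzyme, Alas2 (chromosome X, 150547375 to 150570638, plus strand), was the lowest of the 9 enzymes at 6.46 ± 6.05 TPM, and the general form Alas1 had 40.8 ± 37.2. Alas2 measured 7.21, 24.2, 19.2 and 3.01 CPM, in the order of the globin sum. Alas1 measured 35.4, 33.8, 43.1 and 94.3 CPM, with replicate 4 the highest. The TPM ratio of Alas1 to Alas2 was 7.11, 1.85, 3.62 and 48.2. Of the 9 enzymes 8 were lowest in replicate 4, where 30.7% of all measured genes were lowest. Fech, which inserts iron into the ring, measured 347, 368, 444 and 159 CPM. The enzymes summed to 1371, 1617, 1728 and 888 CPM.

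Iron genes were mostly on, 15 of 18. The ferritin genes Fth1 (1175 ± 382 TPM) and Ftl1 (765 ± 312) were the highest, and Fth1 measured 1009, 1150, 1367 and 567 CPM. Pcbp2 and Pcbp1, which deliver iron to ferritin, had 370 ± 174 and 150 ± 76.9 TPM. Steap3, the reductase of endosomal iron, had 30.6 ± 11.0, Tfr2, the second transferrin receptor, 18.8 ± 4.38, and Slc25a37 (mitoferrin 1), which carries iron into mitochondria, 10.3 ± 5.06. Ferroportin (Slc40a1), the iron exporter, had 5.65 ± 2.06 TPM. Hfe and Heph, which regulate and oxidise exported iron in other tissues, were off. Heme carriers and breakdown genes were also all on, led by Blvrb (192 ± 75.8 TPM) and Tmem14c (158 ± 48.3), while the inducible heme oxygenase Hmox1 stood at 1.86 ± 0.948 TPM.

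Genes of the red cell membrane were on in these Ter119- cells, 23 of 24. In the skeleton under the membrane, Add2 (82.8 ± 17.7 TPM), Epb41 (76.4 ± 30.6), Sptb (73.4 ± 20.5) and Ank1 (43.9 ± 9.06) encode an adducin, protein 4.1, beta spectrin and ankyrin. Rhag, of the Rh complex, led the membrane proteins with 77.9 ± 17.5 TPM, followed by Ermap (64.3 ± 18.1). Slc4a1, which encodes the anion exchanger band 3 (chromosome 11, 102348824 to 102366203, minus strand), was mixed at 6.03 ± 7.35 TPM. It measured 4.97, 76.1, 39.8 and 4.53 CPM from 93, 2323, 888 and 137 counts, with replicates 2 and 3 high and a range of 4.05 on the log2 scale, or 3.92 without replicate 4. Epb42, which binds band 3, measured 10.4, 18.6, 18.3 and 6.15 CPM in the same order of libraries.

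Most of these membrane genes were lowest in replicate 4, and the list was lowest there under all 3 scalings. This held for 20 of 23 measured genes of the list and for 11 of 11 membrane proteins, against 30.7% of all measured genes. Rhd measured 46.0, 65.2, 78.7 and 10.1 CPM and Kel, a blood group antigen, 79.9, 76.5, 88.2 and 28.7 CPM. The membrane proteins summed to 1107, 1207, 1205 and 604 CPM, and to 1173 ± 57.1 over replicates 1 to 3. The spread among those 3 was thus small for the sum, although Slc4a1 alone spread widely among them.

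Most genes of late maturation were on. Car2, a carbonic anhydrase, had 283 ± 123.4 TPM, Prdx2, an abundant antioxidant of red cells, 236 ± 75.2, and Bnip3l (NIX), which marks mitochondria for removal, 198 ± 35.8. Bpgm, the enzyme of 2,3-bisphosphoglycerate, had 10.5 ± 3.04 TPM and Trim58, which acts in enucleation, 3.43 ± 2.02. Alox15, the lipoxygenase of reticulocytes, and Fn3k were off. Hemgn (hemogen) measured 21.2, 68.0, 51.4 and 24.1 CPM and was also high in replicates 2 and 3. Xpo7, a nuclear export factor, was highest in replicate 4 instead (41.8, 33.8, 30.6 and 76.8 CPM). In all, 21 of 23 genes were on (41.2% of coding genes) and 13 of 21 measured ones were lowest in replicate 4 (30.7% of all measured genes), although the list's median was lowest in replicate 1 with rescaled TPM.

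**Figure D4:**
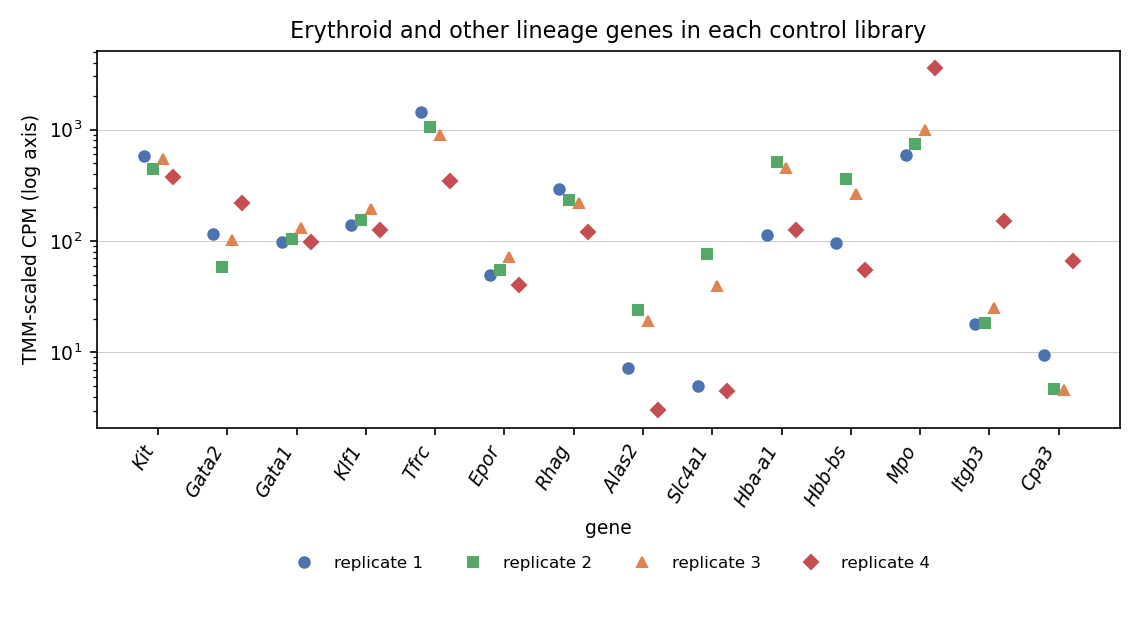
TMM-scaled CPM (log axis) of 14 genes in each shLuc library, with 1 marker per replicate. Gata1 and Klf1 lie close together in all 4, globins, Alas2 and Slc4a1 are high in replicates 2 and 3, and Mpo, Itgb3 and Cpa3 are highest in replicate 4.

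Erythropoietin signals through its receptor, the kinase JAK2 and STAT5. All 10 genes of the receptor and signalling group were on. Epor had 32.3 ± 9.78 TPM and measured 49.1, 54.97, 71.5 and 39.9 CPM. Jak2 had 12.9 ± 4.35 TPM, Stat5b 27.4 ± 9.31 and Stat5a 20.7 ± 9.57, with Stat5b above Stat5a by a TPM ratio of 1.37 ± 0.149. Ptpn6 (SHP1), the phosphatase that ends the signal, was the highest of the group with 42.1 ± 37.3 TPM and measured 59.7, 51.4, 54.2 and 124 CPM. Targets were on in 6 of 10 cases. Pim1, a survival kinase, had 19.9 ± 12.1 TPM and Bcl2l1 (Bcl-xL) 13.7 ± 9.80, while Cish, a feedback inhibitor, had 4.68 ± 1.27 and Osm was off. Socs2 measured 15.0, 16.0, 15.5 and 5.46 CPM. None of the 16 measured genes of this list was variable, which lies near the share of 4.46% over all measured genes.

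Stem and early progenitor genes were partly on, with 9 of 26 on, 14 mixed and 3 off. The on genes were Myb, Lmo2, Kit, Adgrg1 (80.4 ± 80.4 TPM), Bmi1 (41.7 ± 24.4), Gata2, Cd48 (16.0 ± 2.52), Etv6 and Cd34. The stem cell genes Mecom, Hoxb4 and Procr were off. Adgrg1, a receptor of stem cells, measured 144, 120, 164 and 381 CPM, and Bmi1, a Polycomb protein, 52.3, 46.1, 39.0 and 49.6 CPM, so the first was highest in replicate 4 and the second was not. Cd34, the progenitor antigen, measured 6.30, 8.28, 8.06 and 63.7 CPM, and is named here after its values were seen. Of 15 measured members 12 were highest in replicate 4 (40.9% of all measured genes) and 7 were variable (4.46%). The list summed to 1405, 1100, 1316 and 2184 CPM, and to 1274 ± 157 over replicates 1 to 3.

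Fetal genes showed a similar split. Hmga1, an architectural chromatin protein of growing cells, had 402 ± 300 TPM and Lin28b, which sets the fetal state of blood progenitors, 15.7 ± 5.77. Lin28b varied little, with 105, 83.1, 67.4 and 85.6 CPM. Igf2bp1 and Igf2bp2, RNA-binding proteins that act with it, measured 52.7, 22.6, 28.8 and 245 CPM and 4.01, 3.54, 4.43 and 58.5 CPM. Both were far higher in replicate 4 than in the other libraries. Of 7 RNA-binding and chromatin genes, 6 were highest there, against 40.9% of all measured genes. The whole fetal list summed to 857, 789, 882 and 1564 CPM, or 843 ± 47.8 without replicate 4. The imprinted growth gene Igf2 was off, and the growth inhibitor Cdkn1c measured 10.2, 13.8, 19.4 and 1.13 CPM, lowest in replicate 4.

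Granulocyte genes summed to 1790 ± 1076 TPM, above the megakaryocyte (259.8 ± 215) and mast cell lists (421 ± 322). Without replicate 4 the means were 1274, 153 and 260.2 TPM. Mpo, the myeloperoxidase of primary granules (chromosome 11, 87793581 to 87804413, plus strand), had 637 ± 815 TPM. Mpo measured 590, 742, 991 and 3583 CPM, by far the highest in replicate 4. Elane and Prtn3, proteases of the same granules, measured 85.6, 93.9, 150 and 198 CPM and 43.0, 50.3, 73.8 and 156 CPM. Ctsg measured 28.4, 26.6, 32.1 and 106 CPM. Of 9 primary granule and precursor genes 8 were highest in replicate 4, against 40.9% of all measured genes. Their sum was 782, 955, 1300 and 4179 CPM, and 1012 ± 264 over replicates 1 to 3.

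Most late neutrophil genes did not share that order. S100a9 and S100a8, the subunits of calprotectin, had 374 ± 106 and 311 ± 74.1 TPM. S100a9 measured 151, 145, 189 and 73.4 CPM and S100a8 154, 105, 131 and 46.8 CPM, with replicate 4 lowest for both. Ngp, of the secondary granules, measured 33.4, 54.8, 56.6 and 3.54 CPM. Of 9 measured late genes 6 were lowest in replicate 4, against 30.7% of all measured genes. The other 3 were highest there, against 40.9% of all measured genes. Ly6g, Mmp9 and Cd177, markers of mature neutrophils, were off.

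Megakaryocytes share a progenitor with red cells, and 12 of 25 of their genes were on. Pf4, a platelet chemokine, had 68.9 ± 72.2 TPM and measured 11.1, 12.7, 27.9 and 51.4 CPM. Itga2b and Itgb3, the subunits of the platelet fibrinogen receptor, measured 34.6, 21.4, 41.1 and 112 CPM and 17.8, 18.3, 24.8 and 152 CPM. Replicate 4 was highest for each of these. Nrgn, present also in platelets, was the exception with 128, 86.0, 101 and 86.5 CPM, as 15 of 16 measured members were highest in replicate 4 (40.9% of all measured genes) and 10 were variable (4.46%). Not all of these members would reach the 5 CPM minimum without replicate 4, so both counts are partly set by that filter. The list summed to 431, 300, 409 and 988 CPM, or 380 ± 70.1 without replicate 4. Gp6, a collagen receptor, was off.

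Mast cell, basophil and eosinophil genes spread widely, with a median range of 2.44 on the log2 scale over 10 measured members. Srgn, the proteoglycan of secretory granules, had 249 ± 150 TPM and measured 187, 153, 155 and 234 CPM. Hdc, which makes histamine, measured 88.1, 53.1, 92.6 and 213 CPM. Cpa3, the mast cell carboxypeptidase, measured 9.45, 4.68, 4.57 and 66.7 CPM and the eosinophil peroxidase Epx 1.76, 0.426, 0.224 and 23.0 CPM. Gzmb (granzyme B, chromosome 14, 56258838 to 56262260, minus strand) had 1, 5, 0 and 684 counts in replicates 1 to 4. It is named for its wide range, not as a marker of these cells. Of the 10 measured members of the list 8 were highest in replicate 4 (40.9% of all measured genes). Epx reached the 5 CPM minimum only through replicate 4, so this count is partly set by that filter. The list summed to 555, 363, 472 and 964 CPM, or 463 ± 96.6 without replicate 4. Of the 964 CPM in replicate 4, Srgn made up 234 and the receptor gene Csf2rb, also on the list, 235. The mast cell tryptases Tpsb2 and Tpsab1 and the protease Mcpt4 were off, and Fcer1a, the alpha chain of the IgE receptor, was listed at 0 in all 4.

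Macrophages, which surround erythroblasts in the liver, left little RNA in these libraries. Of 20 macrophage genes 17 were off, against 49.97% of nuclear protein-coding genes. The off genes included Adgre1 (F4/80), Vcam1, C1qa, Mrc1 and Marco, the last of which was listed at 0. The group summed to 8.23, 14.4, 11.7 and 31 CPM. Csf1r, the receptor for macrophage growth factor, measured 3.26, 3.08, 4.61 and 18.5 CPM. The genes that macrophages share with other myeloid cells were higher: Laptm5 had 66.6 ± 40.3 TPM, Lyz2 (lysozyme) 57.8 ± 18.8 and Fcer1g 28.8 ± 31.97. Lyz2 measured 84.9, 63.8, 91.7 and 76.3 CPM, with no library apart.

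Lymphoid genes were off in 20 of 23 cases (49.97% of nuclear protein-coding genes), including Cd3e, Pax5 and Rag1, and Dntt and Gzma were listed at 0. Nkg7, a granule protein of killer cells that myeloid cells also use, was the only one on, at 5.62 ± 5.66 TPM. Hepatocyte genes were off in 17 of 22 cases (49.97% of nuclear protein-coding genes). Alb (albumin) had 0.0275 ± 0.0299 TPM and Afp (alpha-fetoprotein) 0.353 ± 0.401, while Ambp, Fgg and Apoc3 were listed at 0. Apoa1, the protein of high-density lipoprotein, was the exception with 14.8 ± 6.98 TPM and measured 24.9, 14.8, 26.9 and 3.37 CPM. Endothelial and stromal genes were off in 16 of 22 cases (49.97% of nuclear protein-coding genes), among them Cdh5, Kdr, Lyve1 and Col1a1. Egfl7, which blood progenitors also express, was on with 23.1 ± 6.35 TPM, and Pecam1 measured 2.14, 4.52, 3.76 and 31.6 CPM. The hepatocyte list summed to 31.7, 21.6, 37.1 and 29.6 CPM.

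The part of cells of these other lineages in the values of replicate 4 was not tested. There the primary granule sum was 4179 CPM, the megakaryocyte sum 988 CPM and the mast cell, basophil and eosinophil sum 964 CPM. The lymphoid sum was 14.1 CPM and the macrophage sum 31 CPM.

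**Figure D5:**
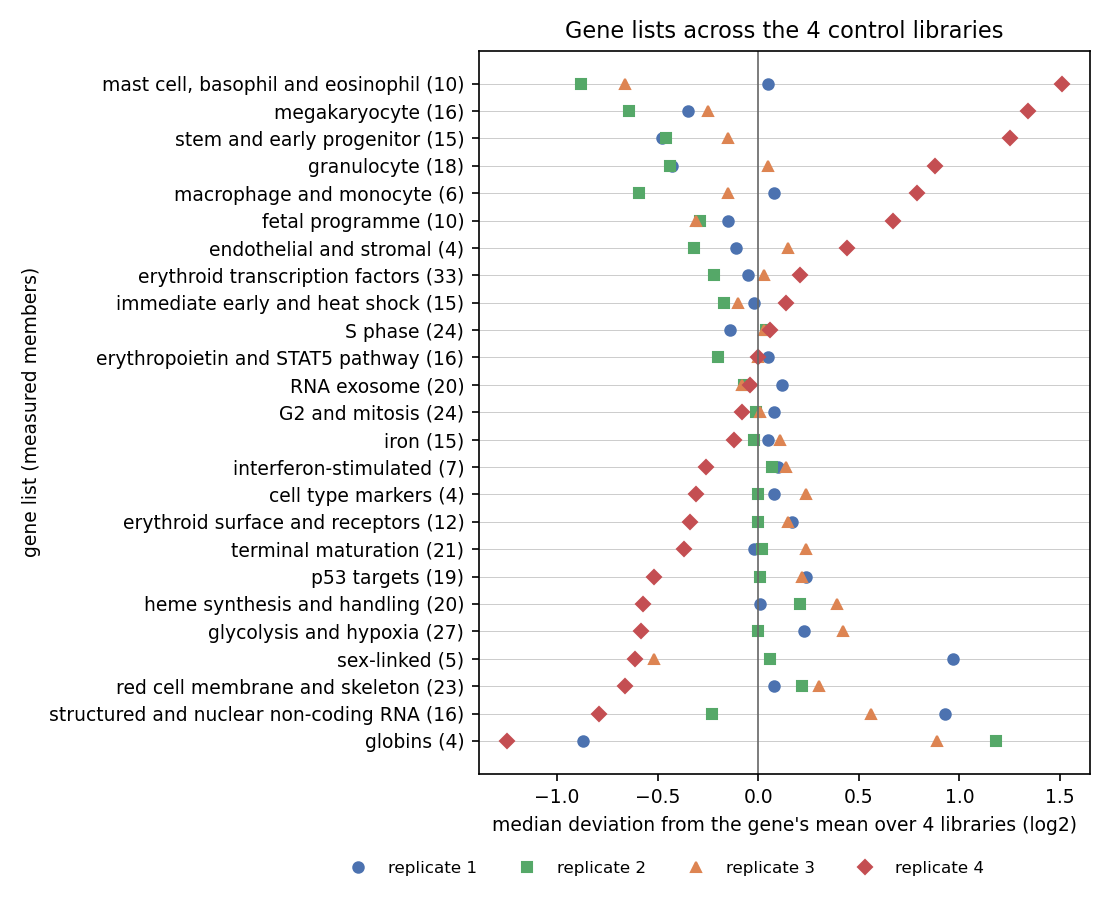
Median deviation (log2) of the measured members of each gene list from their own mean over the 4 libraries, with 1 marker per replicate and the number of measured members in brackets. Replicate 4 lies from -1.25 for globins to 1.51 for mast cell genes, and the cell cycle lists lie between -0.14 and 0.08. Lists with under 4 measured members are left out.

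Cell division genes were on and even. All 24 S phase genes and all 24 genes of G2 and mitosis were on, against 41.2% of coding genes. None of the 48 was variable, against 4.46% of all measured genes. Pcna, the clamp of DNA polymerase, had 212 ± 60.9 TPM, and Mcm7, Mcm6 and Mcm3 of the replicative helicase 163 ± 71.7, 149 ± 70.5 and 132 ± 67.7. Mki67, the proliferation antigen, had 146 ± 57.9 TPM and measured 1826, 1740, 1649 and 1774 CPM. Top2a measured 678, 574, 536 and 556 CPM. The median range was 0.43 on the log2 scale for S phase and 0.36 for mitosis genes, against 0.62 over all measured genes.

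Glycolytic genes were abundant, and all 14 were on. Gapdh had 1688 ± 576 TPM, Ldha 620 ± 136, Aldoa 595 ± 151 and Eno1 526 ± 124. Of the 14, 12 were highest in replicate 3 (19.4% of all measured genes) and 12 were lowest in replicate 4 (30.7%). Ldha, which makes lactate, measured 1019, 887, 1282 and 677 CPM. All 13 measured genes of the response to low oxygen were lowest in replicate 4, against 30.7% of all measured genes, and 5 were variable, against 4.46%. Ankrd37 measured 31.1, 15.4, 26.5 and 0.761 CPM. Bnip3, named after its values were seen, measured 108, 99.3, 124 and 13.9 CPM. The group summed to 1196, 965, 1205 and 504 CPM, and to 1122 ± 136 over replicates 1 to 3.

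Stress programmes were uneven. Targets of p53 were on in 19 of 20 cases at modest levels, led by Ccng1 (85.0 ± 28.6 TPM), Bax (75.8 ± 14.1) and Mdm2 (36.9 ± 9.28). Ccng1 measured 537, 441, 386 and 164 CPM and the cell cycle inhibitor Cdkn1a 46.3, 52.1, 63.3 and 18.5 CPM, and 15 of 19 measured targets were lowest in replicate 4 (30.7% of all measured genes), as the list was under all 3 scalings. Constitutive chaperones were abundant, with Hsp90ab1 at 1917 ± 838 TPM and Hspa8 at 1891 ± 966, while the inducible Hspa1a was off. Immediate early genes were on in 9 of 12 cases at low levels. Interferon effector genes were on in 1 of 14 cases, with Bst2 (13.0 ± 3.20 TPM) on and Ifit1, Mx1 and Rsad2 off.

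Dis3 and Exosc10, which other libraries of the series target and which are named for that, were on in these controls. Dis3, a catalytic subunit of the RNA exosome (chromosome 14, 99075206 to 99099770, minus strand), measured 127, 121, 111 and 158 CPM. Exosc10, the other nuclear catalytic subunit (chromosome 4, 148558429 to 148582401, plus strand), measured 86.4, 88.8, 99.96 and 112 CPM. Both were highest in replicate 4. Of 21 exosome genes 20 were on, against 41.2% of coding genes. None of the 20 measured ones was variable, which lies near the share of 4.46% over all measured genes. Exosc6 was listed at 0 in all 4, although the other 8 genes of the core ring were on. Whether this 0 reflects its expression or the annotation was not tested.

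Variation between the 4 libraries was carried mostly by replicate 4. Of 9399 measured genes 419 were variable (4.46%), and of 9045 coding genes 356 were. Replicate 4 was the highest library for 242 of those 356 and the lowest for 109. Over replicates 1 to 3 alone, 12 of the coding genes had a 4-fold range. Replicate 2 was the highest library for 7.08% of all measured genes, and replicate 4 for 40.9%. The median gene ranged by 0.62 on the log2 scale, or 1.54-fold.

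The coding genes of widest range included several named above. Gzmb (range 8.18 on the log2 scale), Epx (6.26), Scin (4.29), Padi2 (4.25), Igf2bp2 (4.02) and Cpa3 (3.84) were highest in replicate 4. Scin, which severs actin filaments, measured 4.27, 3.11, 2.64 and 52.99 CPM. Angpt1, a ligand made by blood progenitors, measured 5.24, 2.85, 2.69 and 37.4 CPM. Mgarp (5.68), Ndufa4l2 (5.46), Ankrd37 (5.21), Cth (4.96), Ank2 (4.47) and Ngp (3.97) were lowest in replicate 4. Cth, an enzyme of cysteine synthesis, measured 10.6, 6.42, 3.94 and 0.265 CPM. The predicted genes Gm14288 (7.42) and Gm10801 (5.11) were also among them, and Gm10801 measured 2.88, 15.2, 10.4 and 0.364 CPM. Ndufa4l2, which restrains mitochondrial respiration, measured 9.99, 6.55, 18.0 and 0.331 CPM and Mgarp 8.01, 6.55, 10.7 and 0.132 CPM.

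Replicates 1 to 3 differed in fewer genes. The difference of Slc4a1 from the median of the other 3 libraries was -2.98 in replicate 1, 3.92 in replicate 2 and 2.98 in replicate 3 (log2). Crybg1 (4.33, 19.1, 24.7 and 1.49 CPM) and Tmcc2 (4.33, 16.2, 20.2 and 9.53 CPM) were also high in replicates 2 and 3. Rgs1, a regulator of G protein signalling, measured 16.5, 2.98, 4.03 and 4.63 CPM and the phosphatase gene Dusp1 33.1, 10.2, 13.6 and 10.1 CPM, both highest in replicate 1. The histone gene Hist1h4a was high in replicates 1 and 3, with 419, 112, 336 and 97.5 CPM.

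Genes of the sex chromosomes also set replicate 1 apart. Xist, made from the inactive X of female cells, measured 43.9, 215, 323 and 299 CPM, and replicate 1 was lowest. The Y-linked genes Ddx3y (87.6, 39.3, 27.4 and 25.9 CPM), Uty (63.8, 27.1, 18.5 and 14.1 CPM) and Eif2s3y (44.1, 30.6, 16.2 and 13.3 CPM) were highest there. All 5 sex-linked genes were on in every library, so Xist and Y-linked RNA were present in each.

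Some genes hardly moved. Among genes with at least 100 CPM the smallest ranges were those of Ppp2r5c, a subunit of phosphatase 2A (0.06 on the log2 scale, with 119, 116, 114 and 116 CPM), the splicing protein gene Snrpa1 (0.07), the microtubule protein gene Mapre1 (0.07) and the mitochondrial enzyme gene Suclg1 (0.08). Hnrnpa2b1, an RNA-binding protein, was the most abundant of the 10 steadiest, with 1143, 1098, 1108 and 1072 CPM and a range of 0.09.

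Long nuclear and host RNAs were highest mostly in replicate 1, for 7 of 9 measured genes, against 32.7% of all measured genes. Malat1, a nuclear speckle RNA, had 298 ± 71.8 TPM and measured 2387, 1439, 1802 and 1142 CPM. Gas5, a host of small nucleolar RNAs, measured 477, 283, 236 and 167 CPM. Of 1558 snoRNA and scaRNA genes, 18 averaged 5 CPM or more, a minimum that a high value in replicate 1 can meet. All 18 measured genes were variable, against 4.46% of all measured genes, and each was highest in replicate 1, which that filter partly sets. Their median range was 3.79 on the log2 scale. Of 11 measured small nuclear RNA genes 8 were variable and 8 of those were lowest in replicate 4, against 30.7% of all measured genes. Rn7s2, Rpph1, Rn7sk, Rn7s1 and Rmrp all ran from replicate 1 through 3 and 2 to replicate 4, not in the order of the globins.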

How the data were processed

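RNA was extracted with Trizol, and libraries were made with a SMARTer kit for stranded total RNA (v2, Pico), per the labels' protocols, so transcripts without a poly(A) tail are included. The deposited tables hold, per the file headers, 1 row per gene with an effective length, an expected count and TPM. RSEM 1.3.0, STAR 2.5.3a and the builds mm10 and GRCm38 are named in the submitters' processing notes, and the strand setting is not given in the sources used here. An expected count shares out ambiguous reads, and 4.503% of gene values in the deposited tables were not whole on average. They were rounded before use. Of 55385 gene identifiers, 55144 matched GENCODE M21 without their version, from which names and coordinates were taken.

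Deposited TPM compared genes. TMM-scaled CPM (edgeR 4.0.16, R 4.3.3, prior count 2 for log2 values) compared libraries, in genes that averaged 5 CPM or more. There are no tests between groups. Alternatives were other levels for on, TPM rescaled so that coding genes sum to 1000000, DESeq2 1.42.0 size factors, other count rules and each library left out. The 27 gene lists and the members were chosen with earlier results of these data known. Genes are named by rule: the 4 markers, the 20 coding and 10 overall genes of highest TPM, per list the 8 highest and up to 5 off (any member of an erythroid list), the 20 of widest range, the 8 farthest above and below in each library and the 10 steadiest with at least 100 CPM. Dis3, Exosc10, Cd34 and Bnip3 lie outside it. Ahsp had no match. Some genes are not reported here. The libraries of the other groups were not used here.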

Additional observations from a re-analysis of the deposited data

Results flagged for a closer look

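In 41 of 267 values tested, 1 library lay far from the other 3: its gap to the nearest of them, divided by the whole range (Dixon's ratio), was above the critical value for 4 samples. Chance gives this in about 1 in 20 groups, but several of these genes were named because 1 library lay far from the others, so that rate cannot be set against the counts. Among 167 genes tested it held for 29, with replicate 4 the distant library in 23 and replicate 1 in 6. The ratio takes no account of the size of the range, so genes and sums that varied little can pass.

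Replicate 4 lay far above the others for Gzmb (0.993), and for the mast cell and eosinophil genes Epx (0.932) and Cpa3 (0.921). Of the progenitor genes, Cd34 had 0.965, Angpt1 0.926, Adgrg1 0.833, Fli1 0.964 and Etv6 0.880. Of the granulocyte and macrophage genes, Mpo had 0.866, Ctsg 0.931, Fcer1g 0.946 and Csf1r 0.900. The platelet gene Itgb3 had 0.948 and Pecam1 had 0.919. The fetal genes Igf2bp2 and Igf2bp1 had 0.984 and 0.865. Scin had 0.968, Padi2 0.886, Ptpn6 0.885 and Alas1 0.846. Replicate 4 lay far below the others for Socs2 (0.900), Bpgm (0.879) and Pcna (0.848).

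Replicate 1 lay far above the others for Bcl11a (0.890), Rgs1 (0.877), Itgb1 (0.866), Dusp1 (0.848) and Jak2 (0.838), and far below them for Mcm7 (0.984). The range of Bcl11a was only 0.23 on the log2 scale.

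Among summed CPM, replicate 4 was far above for the targets of erythropoietin (0.940), although 3 of their 6 measured genes were highest there and 3 lowest. It was far above too for the fetal list (0.881) and its RNA-binding and chromatin genes (0.927), platelet receptors (0.866), primary granule genes (0.848) and stem cell factors (0.836). It was also far above for hepatocyte cellular genes (0.904), none of which averaged 5 CPM, and Dlk1, which is on the fetal list too, made up 14.2 of their 17.5 CPM there. It was far below for red cell membrane proteins (0.834) and for the share of coding TPM in ribosomal protein genes (0.832). The RNA exosome sum was far above in replicate 1 (0.837), with 1531, 1297, 1280 and 1321 CPM in replicates 1 to 4. With rescaled TPM the median of that list was highest in replicate 4 instead. Replicate 4 also had the distant value of the Alas1 to Alas2 ratio (0.886) and of the embryonic share of beta-like globins (0.872).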

How the results depend on the processing

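No paired analysis was possible because the 4 libraries form 1 group and nothing was compared between groups. With 5 TPM as the level for on, 6334 genes were on in place of 9615, and the members on fell to 10 granulocyte, 5 megakaryocyte, 4 mast cell, 0 lymphoid and 1 endothelial and stromal gene. Leaving out 1 library gave 9652 to 10034 genes on, 1 to 2 hepatocyte genes (2 without replicate 1 or 3) and 2 to 4 endothelial and stromal genes (4 without replicate 1). By share of counts, 6 of the 20 leading coding genes remained, and the 10 highest genes of a library held 21.93% in place of 40.06% of TPM, or 8.14% with rescaled TPM. Rescaling raised list sums to 2940 TPM for transcription factors, 2968 for globins, 2219 for heme, 1615 for membrane, 978 for stem, 3311 for granulocyte, 397.6 for macrophage, 772.8 for mast cell, 49.09 for hepatocyte and 64.27 for endothelial and stromal genes. It put 14 stem, 3 hepatocyte and 4 endothelial and stromal genes on, and moved Tfrc to 352.7, Kit to 174.1, Gata1 to 103.5 and Klf1 to 179.8 TPM. Such rises follow from the construction, since only coding genes then share the total. Variable genes numbered 747 on log2(TPM + 1), 12582 without the filter on low counts and 53 without replicate 4, against 359 to 397 without any other library and 419 with all. At the 5 CPM minimum the counting error was up to 10.34%, and rarer genes were not read for variation.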
